A study of Mus musculus with 6 samples.

Results

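The genes described here are the chemokines that act on the receptor CXCR2, together with their receptors: the ligand genes Cxcl1, Cxcl2, Cxcl3, Cxcl5 and Ppbp, their neighbour Pf4, the signalling receptor genes Cxcr1 and Cxcr2, and the scavenging receptor gene Ackr1. They were chosen by name, with earlier results of these data known, and all 9 were found among the 51912 genes of the table. Transcripts were measured by RNA sequencing in primary fibroblasts of mice aged 6 weeks. The control group held 3 libraries labelled control, and the other group held 3 libraries of cells given the chemokine CXCL3, both after 48 h. No other agent or allele is named for either group. The study title places the cells in work on CXCL3, myofibroblasts and the spread of pancreatic cancer, and the comparison asks what CXCL3 changes in fibroblasts. The labels used here give no genotype, strain or sex, no organ of origin, no dose or source of CXCL3 and no vehicle, and do not say whether replicates were separate cultures or animals. All p-values here are therefore set against differences among libraries that may be technical.

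CXC chemokines are small secreted proteins, and those with the sequence glutamate-leucine-arginine ahead of the first cysteine, called ELR chemokines, attract neutrophils by binding CXCR2, a receptor coupled to inhibitory G proteins. Stromal cells such as fibroblasts release them when interleukin-1, tumour necrosis factor or Toll-like receptor ligands activate NF-kappaB, whose sites lie in the ligand promoters. The protein of Pf4, platelet factor 4, belongs to the same family and gene cluster but lacks the ELR motif. Mature neutrophils are the cells best known for CXCR2, platelets for the proteins of Ppbp and Pf4, and the endothelium of small veins for ACKR1, which binds these chemokines without coupling to G proteins.

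The 6 chemokine genes lie on the plus strand of chromosome 5 within 146579 bases (GRCm38), in the order Cxcl5 (90759360 to 90761624), Ppbp (90768518 to 90770063), Pf4 (90772435 to 90773383), Cxcl3 (90786103 to 90789600), Cxcl1 (90891241 to 90893115) and Cxcl2 (90903871 to 90905938). Cxcr2 (74153989 to 74161246), Cxcr1 (74191785 to 74194631) and Ackr1 (173331886 to 173333750) lie on chromosome 1. The promoters of Cxcl1, Cxcl2 and Cxcl3 are shown because these 3 abundant ligand genes had the same NF-kappaB site close to the start. Each stretch runs 5′ to 3′ from 160 to 31 bases before the RefSeq start (GRCm38.p6, plus strand), and capitals mark the bases that match the NF-kappaB consensus on either strand, 2 overlapping matches in each gene.
Cxcl1 (chr5:90891085-90891214): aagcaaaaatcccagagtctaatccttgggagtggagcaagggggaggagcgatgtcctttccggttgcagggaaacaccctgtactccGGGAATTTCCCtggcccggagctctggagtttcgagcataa
Cxcl2 (chr5:90903739-90903868): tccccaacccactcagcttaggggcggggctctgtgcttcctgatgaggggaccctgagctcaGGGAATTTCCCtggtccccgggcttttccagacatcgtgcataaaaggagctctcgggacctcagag
Cxcl3 (chr5:90785941-90786070): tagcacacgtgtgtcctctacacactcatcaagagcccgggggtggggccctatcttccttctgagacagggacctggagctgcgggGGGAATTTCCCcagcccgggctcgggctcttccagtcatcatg

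The site began 71 bases before the start of Cxcl1, 97 before that of Cxcl2 and 73 before that of Cxcl3, and the same 11 bases were in capitals in all 3. RefSeq promoters of 300 bases (250 before and 50 after the start) were matched for 8 of the 9 genes, all but Cxcl5. Those of Ppbp, Pf4, Cxcr1, Cxcr2 and Ackr1 held no match to the consensus. Among 32851 mouse promoters of this length, 1480 (4.505%) held the consensus on either strand and 29 (0.088%) held the exact form given by the first 10 capitals. A match describes letters in the window and is not evidence of binding.

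Transcripts of 5 of the chemokine genes were abundant in every library, whereas those of both signalling receptors were near 0. Levels are in TPM, the share of a gene among all transcripts, which is scaled for gene length and can be compared between genes. Pf4 had a mean of 1043 TPM over the 6 libraries and ranked 136 of the 13139 genes kept, those with at least 1 TPM in at least 3 libraries. Next came Cxcl5 at 461 TPM (rank 300), Cxcl1 at 441 TPM (rank 319), Cxcl2 at 214 TPM (rank 635) and Cxcl3 at 173 TPM (rank 792). Ppbp was lower, at 24.6 TPM (rank 4743), and Ackr1 stood at 2.40 TPM (rank 11420). Cxcr2 and Cxcr1, at means of 0.0717 and 0.0233 TPM, were below the filter, so 7 of the 9 genes were tested.

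Between neighbours in this order, Cxcl5 and Cxcl1 did not differ beyond their spread: Cxcl1 was the higher of the pair in controls 1 and 3, and Cxcl5 in control 2 and in CXCL3 libraries 1, 2 and 3. Cxcl2 lay above Cxcl3 within each of the 6 libraries, and the other steps from Pf4 down to Ackr1 held in every library too.

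**Figure D1:**
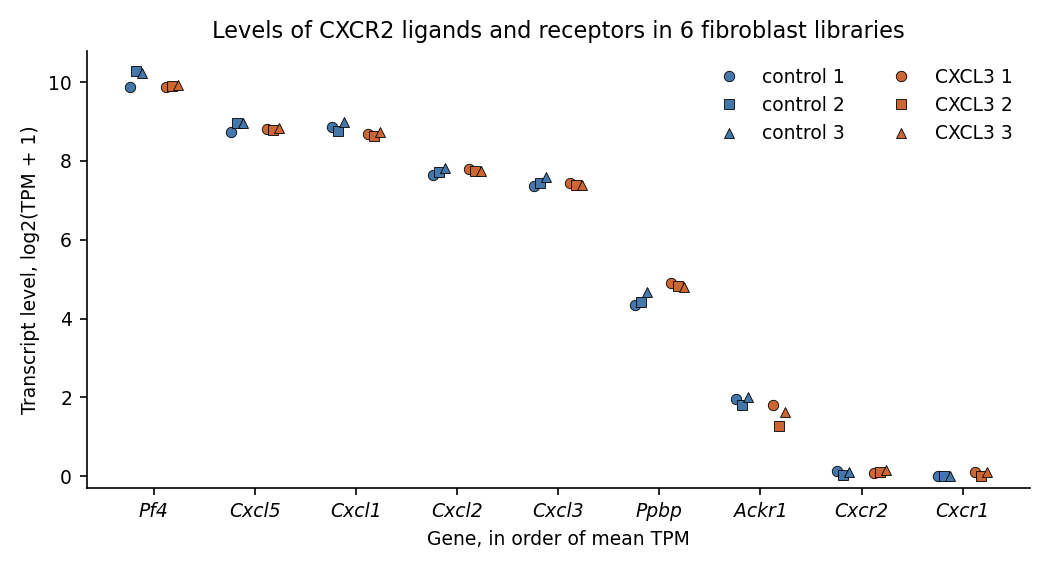
Transcript level of each gene as log2(TPM + 1) in the 3 control (blue) and 3 CXCL3 (orange) libraries, 1 point per library, with genes in order of mean TPM. Pf4 is at the top with a mean of 1043 TPM, and Cxcr2 and Cxcr1 lie at the bottom with means of 0.0717 and 0.0233 TPM.

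Within the cluster, genes listed at or near 0 lay among those with abundant transcripts. Of the 11 genes annotated between the start of Cxcl5 and the end of Cxcl2, the 5 that are not members were listed at or near 0. Cxcl15, the ELR chemokine known from lung epithelium, lies 4933 bases beyond Cxcl3 and reached 0.04 TPM at most, while Gm24322, Gm43085, Gm43086 and Gm22816 were listed at 0 in all 6 libraries. Ppbp and Pf4 are only 2371 bases apart, and their mean levels were 24.6 and 1043 TPM.

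**Figure D2:**
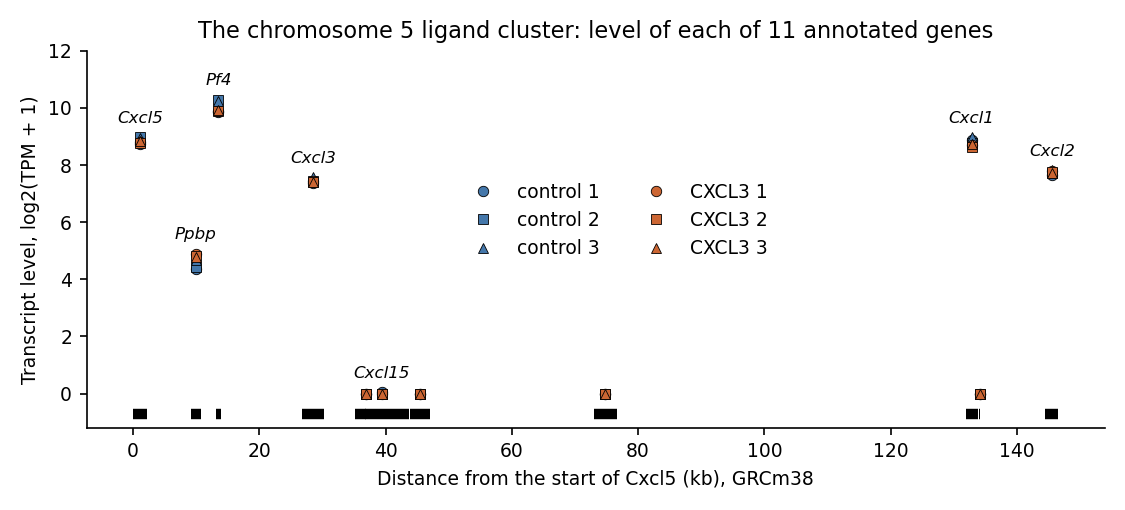
Level of each annotated gene of the chromosome 5 cluster as log2(TPM + 1) in each library, against its distance from the start of Cxcl5 in kb, with black bars for the extent of each gene. The 6 labelled chemokine genes other than Cxcl15 have means of 24.6 to 1043 TPM, and the genes between Cxcl3 and Cxcl1 lie at 0.04 TPM or below.

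For the gene of the added chemokine itself, no difference beyond the spread between libraries was found. Controls 1, 2 and 3 had 165, 172 and 191 TPM of Cxcl3, and CXCL3 libraries 1, 2 and 3 had 173, 168 and 168 TPM. The CXCL3 libraries lay within the range of the controls. Its log2 fold change, CXCL3 against control, was -0.05 ± 0.07 (SE; limma, adjusted p = 0.75), with a 95% interval from -14.1% to 8.87%. Its sign was not stable, and turned to 0.01 without control 3.

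Cxcl2, a ligand whose transcript shares sequence with that of Cxcl3, showed the same picture. It was at 199, 210 and 227 TPM in the controls and at 221, 215 and 212 TPM with CXCL3, all within the control range. The log2 fold change was 0.03 ± 0.07 (adjusted p = 0.833; 95% interval from -8.65% to 14.1%), and became -0.05 with median-of-ratios scaling. Of stretches of 50 bases, 61 are shared by the longest coding transcripts of Cxcl2 and Cxcl3 (3.37% and 6.31% of each). Some of their reads may therefore have been divided between them. Cxcl1 shares 0 such stretches with any other annotated gene.

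Cxcl1, the main neutrophil attractant released by many mouse stromal cells, was at 468, 436 and 504 TPM in the controls and at 413, 399 and 426 TPM with CXCL3. All 3 CXCL3 libraries lay below all 3 controls, and the nearest values, 436 and 426 TPM, were closer than the range within either group. This gave a log2 fold change of -0.18 ± 0.07 (95% interval from -21.5% to -0.983%), with an unadjusted p of 0.037 and an adjusted p of 0.416. It was negative in all 18 alternative fits, between -0.26 and -0.13, and passed in none, the smallest adjusted p being 0.0696. Most of these fits could not turn the sign, because they reused values of groups that did not overlap.

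Cxcl5, a ligand typical of stromal and epithelial cells, was at 424, 501 and 497 TPM in the controls and at 446, 440 and 458 TPM with CXCL3. Control 1 lay below every CXCL3 library and controls 2 and 3 above them. Cxcl5 had a log2 fold change of -0.08 ± 0.08 (adjusted p = 0.632; 95% interval from -16.6% to 7.64%). The value moved with each control: it was -0.16 and passed without control 1 (adjusted p = 0.0369), -0.036 without control 2, -0.042 without control 3, and 0.08 without both of the latter. Without control 1, 32.4% of all genes passed.

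Ppbp, whose product is cut to the platelet chemokine CXCL7, had the largest positive difference of the 7. It was at 19.4, 20.5 and 24.6 TPM in the controls and at 28.7, 27.5 and 26.7 TPM with CXCL3, and every CXCL3 library lay above every control. This gave a log2 fold change of 0.35 ± 0.11 (95% interval from 6.83% to 52.6%), with an unadjusted p of 0.0137 and an adjusted p of 0.328. It was positive in all 18 alternative fits, between 0.28 and 0.49, and passed in none, the smallest adjusted p being 0.0555 without control 1. As the groups did not overlap, most of these fits could not have turned the sign.

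Pf4, the neighbour of Ppbp, varied more among the controls than between the groups. It was at 935, 1247 and 1211 TPM in the controls and at 942, 954 and 968 TPM with CXCL3. Control 1 lay below all CXCL3 libraries, and controls 2 and 3 lay above them. The log2 fold change of -0.23 ± 0.11 did not pass (adjusted p = 0.451; 95% interval from -28.8% to 1.68%). It passed without control 1 (-0.36, adjusted p = 0.00506) and with library weights (-0.32, adjusted p = 0.036), and was 0.03 without controls 2 and 3. Of all 13139 genes, 4254 (32.4%) passed without control 1 and 1446 with library weights.

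Controls 2 and 3 also stood apart over all genes: on the first principal component (52.9% of the variance) they lay at 36.6 and 26.6, and the other 4 libraries between -19.2 and -9.39. Longer transcripts were relatively lower in these controls: the Spearman correlation, across genes that are not independent replicates, between transcript length and the library's difference from the average was -0.50 and -0.48, against 0.20 to 0.45 elsewhere. With 588 bases, Pf4 has the shortest transcript of the 9 genes. With each library's trend with transcript length removed, its log2 fold change was -0.10, and those of Ppbp and Cxcl1 were 0.44 and -0.15 (adjusted p = 0.395, 0.102 and 0.321). Cxcl3 went to -0.14 and Cxcl2 to 0.05 in that fit (adjusted p = 0.554 and 0.724), farther apart than without the correction. Cxcl5 went to -0.04. The length used was that of a gene's longest annotated transcript of any type. It was 3498 bases for Cxcl3 and 1871 for Cxcl1, whose longest coding transcripts have 1016 and 953. The corrected values depend on that choice, and a fit with coding lengths was not run.

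Ackr1, the scavenging receptor gene, was at 2.86, 2.52 and 3.01 TPM in the controls and at 2.48, 1.42 and 2.09 TPM with CXCL3. The groups did not overlap, but 2.52 and 2.48 TPM, the values nearest to each other, were almost equal. Ackr1 had a log2 fold change of -0.36 ± 0.18 (adjusted p = 0.457; 95% interval from -41.3% to 4.04%), and it ranged from -0.50 to -0.16 over 17 alternative fits without passing. Ackr1 overlaps the adhesion gene Cadm3 on the same strand, which was at 7.86 to 11.3 TPM, and shares 6.07% of its stretches of 50 bases with it. How reads were divided between this pair is uncertain at such a level.

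The signalling receptor genes were close to 0 in both groups. Cxcr2, the receptor through which CXCL3 is known to act, was at 0.09, 0.02 and 0.07 TPM in the controls and at 0.06, 0.07 and 0.12 TPM with CXCL3. Cxcr1, the gene of its sister receptor, was listed at 0 in all 3 controls and at 0.07, 0 and 0.07 TPM with CXCL3. Neither entered the test, and without the filter their adjusted p was 0.769 and 0.676. TPM keeps no read depth, so no upper limit can be set on these levels, and a transcript level says nothing of receptor protein already on the cells.

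Counted together, 0 of the 7 tested members had a limma adjusted p under 0.05, where 21 of 13139 genes (0.16%) did, 0.0304% higher and 0.129% lower. An unadjusted p under 0.05 was found for 2 of the 7, Cxcl1 and Ppbp, against 11.6% of all genes. The groups did not overlap for 3 of the 7 (Ppbp higher, Cxcl1 and Ackr1 lower), against 17.2% of all genes, 7.92% higher and 9.31% lower. The 7 log2 fold changes had a median of -0.08 (2 above 0 and 5 below), where that of all genes tested was 0.07.

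**Figure D3:**
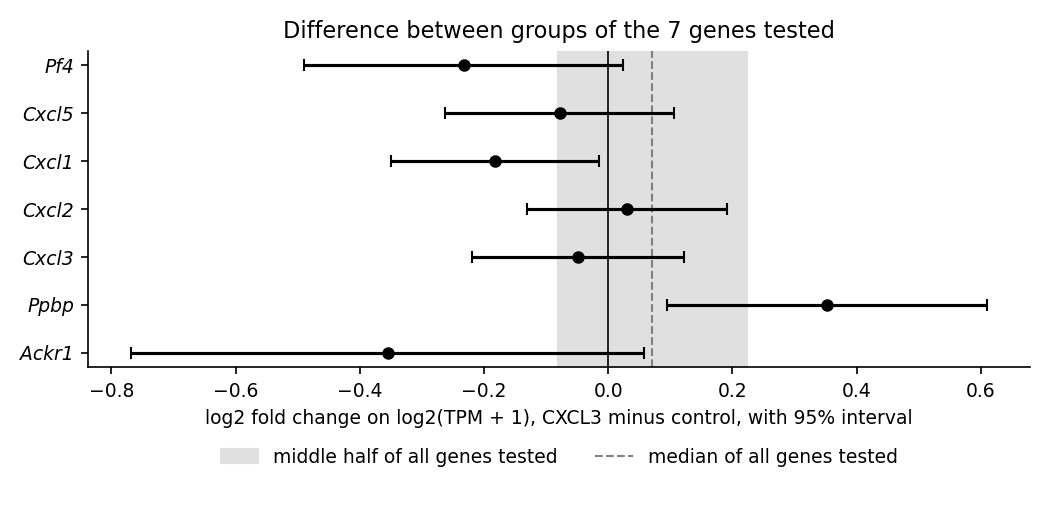
log2 fold change (CXCL3 minus control, on log2(TPM + 1)) of the 7 genes tested, as points with 95% intervals, over the range between the quartiles (grey) and the median (dashed, 0.07) of all genes tested. Ppbp, at 0.35, and Cxcl1, at -0.18, have intervals that do not reach 0, and neither passed after adjustment.

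Ratios between ligands within one library do not move with the library's total. The log2 ratio of Cxcl2 to Cxcl3 was 0.28, 0.28 and 0.25 in the controls and 0.35, 0.36 and 0.34 with CXCL3. The shift is small, 0.08 on the log2 scale, and the groups did not overlap, with an SD within a group of 0.02 at most. Neither gene passed by itself, and some reads may have been divided between them. A library's trend with transcript length can also move such a ratio. How often ratios of other gene pairs separate was not computed, and the groups did not overlap for 17.2% of single genes. The ratios of Cxcl1 to Cxcl3 (1.34 to 1.51 in controls, 1.25 to 1.34 with CXCL3) and of Cxcl5 to Cxcl3 (1.37 to 1.54 and 1.36 to 1.45) overlapped between the groups.

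The ratios of Ppbp to Cxcl3, Ppbp to Pf4 and Cxcl1 to Cxcl2 were taken after the values had been seen. The ratio of Ppbp to Cxcl3 was -3.08, -3.07 and -2.96 in the controls and -2.59, -2.61 and -2.66 with CXCL3, and that of Ppbp to its neighbour Pf4 went from between -5.93 and -5.59 to between -5.18 and -5.04. In both, every CXCL3 library lay above every control, as for the level of Ppbp itself. The ratio of Cxcl1 to Cxcl2 was 1.05 to 1.23 in controls and 0.89 to 1.01 with CXCL3. These ratios share genes with each other and are given as descriptions, with no test.

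**Figure D4:**
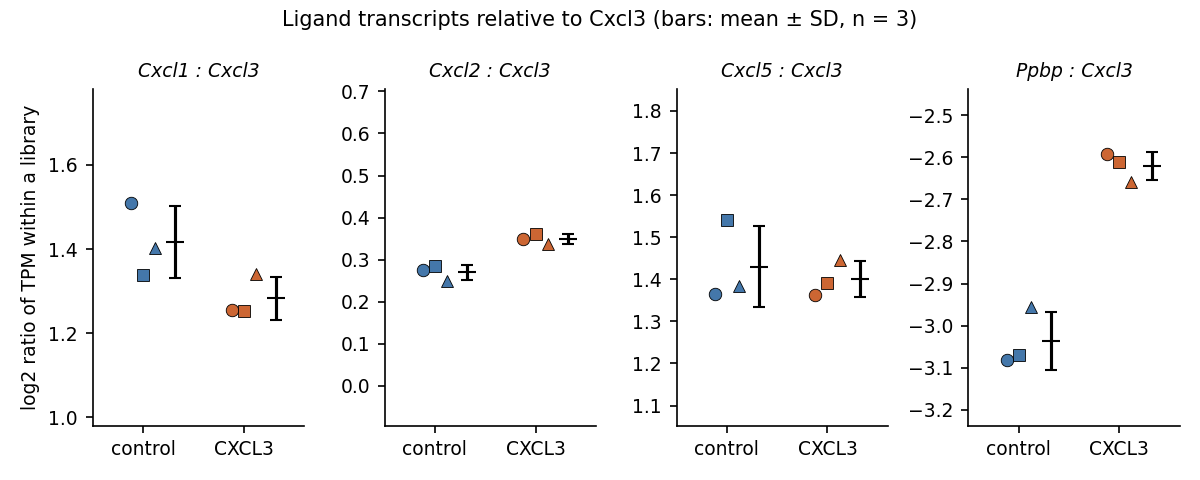
log2 ratio of the TPM of Cxcl1, Cxcl2, Cxcl5 and Ppbp to that of Cxcl3 within each library, by group, with mean ± SD (n = 3) beside the points; every panel spans the same range of log2 units. The groups are apart for Cxcl2 (0.25 to 0.28 against 0.34 to 0.36) and Ppbp, and overlap for Cxcl1 and Cxcl5.

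The summed level of the 5 ligand genes Cxcl1, Cxcl2, Cxcl3, Cxcl5 and Ppbp was 1276, 1340 and 1443 TPM in the controls and 1282, 1250 and 1292 TPM with CXCL3, and the groups overlapped. Cxcl1 and Cxcl5 together made up most of this sum. Cxcl1 held 32.5% to 36.7% of it in controls and 32% to 33% with CXCL3, and Cxcl5 held 33.3% to 37.4% and 34.8% to 35.5%. The share of Cxcl2 went from between 15.6% and 15.7% to between 16.4% and 17.2%, that of Cxcl3 from between 12.9% and 13.2% to between 13.0% and 13.5%, and that of Ppbp from between 1.52% and 1.70% to between 2.06% and 2.24%.

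Among 9460 other protein-coding genes with a mean of at least 5 TPM, the 5 whose log2 values over the 6 libraries ran closest to those of Cxcl3 were Scamp3, Cd68, Crlf2, B4galt3 and Tmbim4. Each gene was centred on its mean, and the root mean square difference from Cxcl3 was 0.0172 for Scamp3 to 0.0222 for Tmbim4, with a median over all these genes of 0.178. Cd68, a marker of macrophages, was at 277, 289 and 319 TPM in controls and 288, 287 and 276 TPM with CXCL3. Cxcl2 came at rank 45 (0.0411), Cxcl5 at rank 262 (0.0622), Cxcl1 at rank 961 (0.0883), Pf4 at rank 3020 (0.139) and Ppbp at rank 5628 (0.204). Genes that vary little are close to Cxcl3 by this measure whatever they do.

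The labelled cell type was checked against markers. Of 9 fibroblast markers 8 were kept, with a summed level of 4666 to 6734 TPM in controls and 5423 to 5792 TPM with CXCL3. Most of this sum was the matrix gene Fn1 (1880 to 3008 TPM) and the cytoskeleton gene Vim (1395 to 1709 TPM). Col1a1, Col1a2 and Dcn carried most of the rest. Which cells of the culture the Fn1 and Vim transcripts came from was not tested. The surface markers were lower, with Pdgfra at 9.63 to 16.5 TPM, Pdgfrb at 16.9 to 30.3 TPM and Thy1 at 15.4 to 24.8 TPM, and Lum, the gene of the matrix proteoglycan lumican, was at 0.06 to 0.50 TPM. Macrophage markers were abundant too: 11 of 11 were kept, summing to 14922 to 17893 TPM in controls and 14555 to 14657 TPM with CXCL3, most of it the lysozyme gene Lyz2, and the macrophage receptor gene Adgre1 was at 363 to 507 TPM. Their fold changes were 5 positive and 6 negative. Of the 11, only the complement gene C1qa passed, as did 0.16% of all genes. It was at 249, 326 and 293 TPM in controls and at 167, 162 and 173 TPM with CXCL3 (log2 fold change -0.78, limma adjusted p = 0.0493). That call lies just under the threshold, and with no filter 0 genes passed. C1qb and C1qc were also lower in every CXCL3 library than in every control, and did not pass (adjusted p = 0.206 and 0.110). So was Lyz2 (limma adjusted p = 0.493). By contrast, Mrc1 was higher in every CXCL3 library than in every control (log2 fold change 0.53, limma adjusted p = 0.248). The groups overlapped for the other macrophage markers, and did not overlap for 17.2% of all genes. Mouse macrophages can express Pf4 and several of the ligands, so a level here belongs to the whole culture. In such bulk samples fewer cells of a type and less RNA per cell cannot be told apart. The part of macrophage RNA in the Pf4 and ligand levels was not tested.

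Markers of the cells best known for the near-silent or platelet genes were scarce. Of 10 neutrophil markers 3 were kept. Ngp and Retnlg were at 0 in all libraries and Ly6g at 0.08 TPM at most, while the summed level (560 to 675 TPM in controls, 538 to 589 TPM with CXCL3) was almost wholly S100a8. Of 10 platelet and megakaryocyte markers 2 were kept (Itga2b and Treml1), and the sum was 2.97 to 5.58 TPM in controls against 4.90 to 6.05 TPM with CXCL3. Of 10 endothelial markers 2 were kept, Vwf at 1.85 to 4.45 TPM and Kdr at 0.71 to 1.32 TPM. All 10 summed to 4.40 to 7.56 TPM in controls and 7.20 to 7.34 TPM with CXCL3. Selp was at 0.20 to 2.36 TPM, Cdh5 at 0.23 to 1.6 TPM and Cldn5 at 0. Ackr1 itself was no higher than 3.01 TPM, so its level was like that of Vwf. Erythroid (6 markers), epithelial (6) and lymphoid (7) lists had 0 markers kept and summed to at most 4.91, 2.00 and 0.25 TPM.

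Most genes of the machinery that CXCR2 signals through were expressed. Of 36 genes of G protein signalling and desensitisation, 35 were kept and 0 passed in either direction; 26 fold changes were positive and 9 negative, and the median was 0.12 against 0.07 for all genes. An unadjusted p under 0.05 was found for 3 of the 35, a share no larger than the 11.6% of all genes. Rgs2, a regulator that shortens G protein signals, averaged 6.47 ± 0.26 TPM in controls against 4.06 ± 0.20 TPM with CXCL3 (mean ± SD, n = 3; log2 fold change -0.56, adjusted p = 0.19). The beta-arrestin gene Arrb1 was at 6.83 ± 2.68 and 11.9 ± 1.13 TPM (0.77, adjusted p = 0.31), and the G protein gamma subunit gene Gng5 at 677 ± 87.1 and 565 ± 19.6 TPM (-0.25, adjusted p = 0.405). The abundant GTPase genes Cdc42 (386 ± 11.4 and 369.6 ± 3.04 TPM) and Rac1 (333 ± 39.2 and 348 ± 7.64 TPM) did not pass. Without control 1, 12 of the 35 passed, as did 4254 of all 13139 genes (32.4%).

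Receptors and adaptors through which interleukin-1, interleukin-17, tumour necrosis factor and bacterial products induce the ligands were all kept, 19 of 19, and 0 passed (14 positive, 5 negative, median 0.09, unadjusted p under 0.05 for 2, against 11.6% of all genes). Ly96, the partner of Toll-like receptor 4, averaged 29.8 ± 4.83 TPM in controls against 19.7 ± 2.23 TPM with CXCL3 (log2 fold change -0.57, adjusted p = 0.246). Traf3ip2, the adaptor of the interleukin-17 receptor, was at 23.05 ± 0.75 and 18.2 ± 2.79 TPM (-0.34, adjusted p = 0.378), and Tlr2 at 101 ± 7.89 and 89.7 ± 3.88 TPM (-0.17, adjusted p = 0.457). The most abundant were Cd14 (268 ± 12.1 and 255 ± 4.86 TPM), Tnfrsf1a (128 ± 11.5 and 135 ± 1.68 TPM) and Tnfrsf1b (94.1 ± 21.7 and 108 ± 3.48 TPM). Without control 1, 9 of the 19 passed, against 32.4% of all genes.

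The transcription factors that act on the ligand promoters, NF-kappaB with its inhibitors and kinases and the C/EBP factors, were 18 of 18 kept with 0 passed (13 positive, 5 negative, median 0.10, unadjusted p under 0.05 for 2, against 11.6% of all genes). Cebpb, a factor that acts with NF-kappaB on inflammatory promoters, was at 137, 125 and 167 TPM in the controls and at 248, 216 and 189 TPM with CXCL3. Every CXCL3 library lay above every control (log2 fold change 0.60 ± 0.13, adjusted p = 0.196). Ikbkg, the regulatory subunit of the IkappaB kinase, was at 32.9, 21.9 and 22.3 TPM in the controls and 47.6, 37.5 and 46.1 TPM with CXCL3 (0.76 ± 0.17, adjusted p = 0.204). Nfkbia, the inhibitor that NF-kappaB itself induces, was at 243 ± 10.4 and 222 ± 6.33 TPM (-0.13, adjusted p = 0.452), and Tnip1, an inhibitor of the pathway, at 66.6 ± 11.1 and 71.4 ± 1.95 TPM. Without control 1, 9 of the 18 passed, against the same 32.4%.

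Proteins that bind AU-rich elements and set how long ligand mRNA lasts were 10 of 10 kept with 0 passed (8 positive, 2 negative, median 0.05, unadjusted p under 0.05 for 1, against 11.6% of all genes). That gene, Zfp36, whose product tristetraprolin speeds the decay of cytokine mRNA, averaged 65.5 ± 2.73 TPM in controls against 57.5 ± 1.33 TPM with CXCL3 (log2 fold change -0.18, adjusted p = 0.407). The decay factor gene Khsrp was at 30.9 ± 5.42 and 36.8 ± 1.49 TPM (adjusted p = 0.457) and Elavl1, of the stabilising protein HuR, at 35.6 ± 0.21 and 38.2 ± 3.8 TPM (adjusted p = 0.629). Hnrnpd and Zfp36l1 were the most abundant beside Zfp36, at 70.8 ± 1.53 and 69.5 ± 2.92 TPM and at 50.7 ± 6.75 and 52.7 ± 2.35 TPM.

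Of 24 genes of the heparan sulphate proteoglycans that hold chemokines and the proteases that trim them, 19 were kept and 0 passed (12 positive, 7 negative, median 0.07, unadjusted p under 0.05 for 2, against 11.6% of all genes). The proteoglycan gene Sdc2 averaged 44.1 ± 4.07 TPM in controls against 33.6 ± 1.41 TPM with CXCL3 (log2 fold change -0.38, adjusted p = 0.245), Gpc4 at 36.0 ± 2.07 and 29.7 ± 1.18 TPM (-0.27, adjusted p = 0.341) and Sdc3 at 79.1 ± 17.3 and 95.4 ± 4.81 TPM (0.29, adjusted p = 0.457). The macrophage elastase gene Mmp12 (498 ± 41.2 and 520.5 ± 2.95 TPM), Sdc1 (302 ± 40.1 and 294 ± 9.74 TPM) and the gelatinase gene Mmp9 (203 ± 11.6 and 222 ± 7.52 TPM) were the most abundant. The neutrophil protease genes Ctsg, Elane and Prtn3 were at 0.13 TPM or below.

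Of the other CXC chemokine genes of chromosome 5 and other CXC or atypical receptors, 3 of 10 were kept and 0 passed, with an unadjusted p under 0.05 for all 3 (11.6% of all genes). Cxcl10, an interferon-induced ligand without the ELR motif, averaged 6.34 ± 0.94 TPM in controls against 10.2 ± 0.75 TPM with CXCL3 (adjusted p = 0.209). Cxcr4 (31.3 ± 3.28 and 23.5 ± 1.93 TPM) and the scavenging receptor gene Ackr3 (8.57 ± 1.86 and 11.3 ± 0.38 TPM) had adjusted p-values of 0.29 and 0.426. Cxcr3, the gene of the CXCL10 receptor, was at 0.17 to 0.76 TPM.

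**Figure D5:**
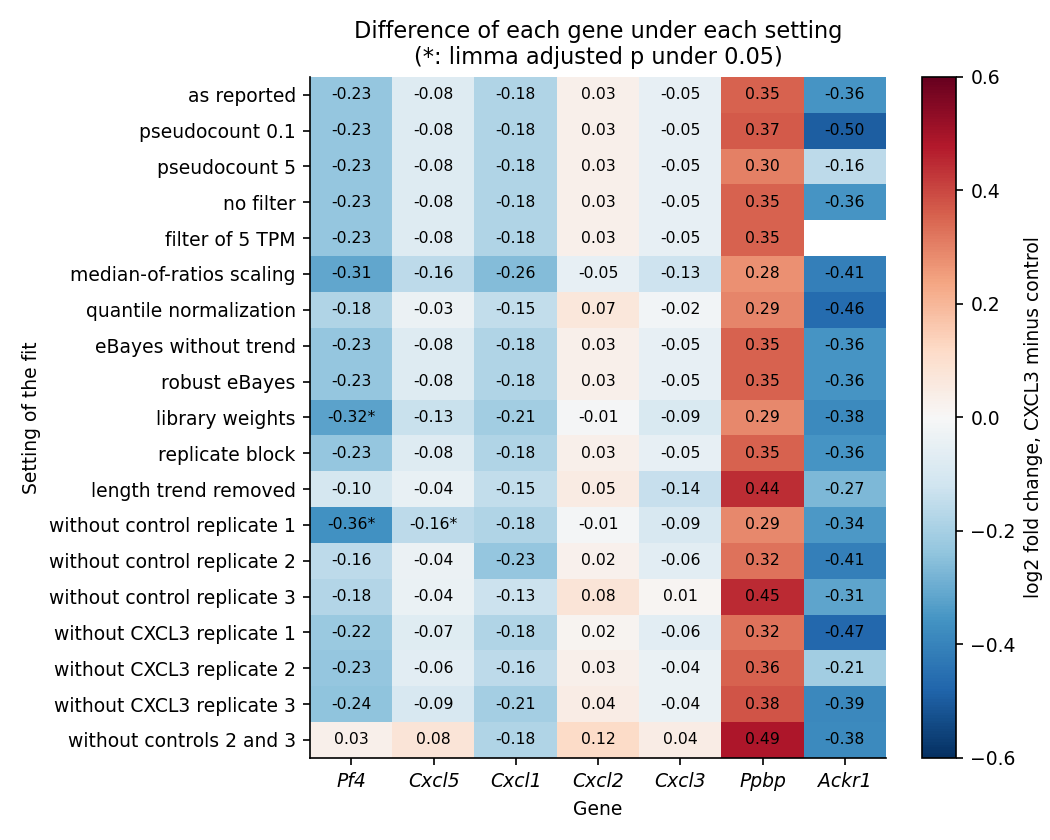
log2 fold change (CXCL3 minus control) of the 7 genes under the reported fit and 18 other settings, with colour and printed value for each and a star where the limma adjusted p was under 0.05; the empty cell is Ackr1, left out by a filter of 5 TPM. Cxcl1 and Ackr1 are negative and Ppbp positive in every row, and the stars are at Pf4 (-0.36 and -0.32) and Cxcl5 (-0.16). They arose without control 1, where 32.4% of all genes passed, and for Pf4 also with library weights, where 1446 of 13139 did.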

How the data were processed

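The values are TPM as the authors deposited them, for 51912 genes in 6 libraries, with 0 columns of other samples. Per the submitters' processing notes, fastp, HISAT, RSEM and the build GRCm38.p5 were used; the sources used here do not give versions, annotation, strand setting or filters. TPM is a share and keeps no read depth, so no counting interval is given, and precision rests on the spread between 3 libraries. The columns sum to between 984281 and 986705 TPM, with 19493 to 20270 genes above 0 in a library.

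Groups and replicate numbers came from the labels. Gene IDs were matched to GENCODE mouse M21 (51719 of 51912). Genes with at least 1 TPM in at least 3 of 6 libraries were kept (13139, of which 13121 had a transcript length). Differences on log2(TPM + 1) were tested with limma 3.58.1 in R 4.3.3 (lmFit, eBayes with trend, two-sided, Benjamini-Hochberg over all genes kept, threshold 0.05), which was first tested on simulated data. A fold change on this scale understates that of low genes.

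The 9 genes, the pathway and marker lists and the settings were chosen with earlier results of these data known. The genes named are all members, the 3 of each pathway list with the smallest p and the 3 with the highest mean, the leading and the absent cell type markers, and the 5 genes closest to Cxcl3. Lum, Pdgfra, Pdgfrb, Thy1, Adgre1, Mrc1, Ly6g, Cdh5, C1qa, C1qb, C1qc, Cxcr3 and the low proteases were chosen after their values were seen. Promoters are from RefSeq (GRCm38.p6).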

Additional observations from a re-analysis of the deposited data

How the results depend on the processing

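Cxcl1, Ppbp and Ackr1 kept their sign and did not pass under any alternative run. Their groups did not overlap, so leaving out libraries could not turn the sign. Changes of the filter, the eBayes setting or the replicate block left these fold changes as they were. The kept sign is therefore no added support. Signs that turned were those of Cxcl2 (-0.048 with median-of-ratios scaling and -0.0072 with library weights) and, without controls 2 and 3 together (chosen after seeing the data), of Cxcl3 (0.044), Cxcl5 (0.078) and Pf4 (0.030). That setting leaves 1 control, assumed to vary like the other libraries. It also moved the difference in the log2 ratio of Cxcl1 to Cxcl2 from -0.21 to -0.30 and in the ligand sum from -78.3 to -1.60 TPM; without control 3 alone the sum differed by -33.4 TPM. With library weights, whose estimation stopped short of convergence, Pf4 passed at -0.32, as did 1446 of all 13139 genes. Leaving out each library in turn gave log2 fold changes of -0.013 to 0.079 for Cxcl2, -0.094 to 0.011 for Cxcl3, -0.16 to -0.036 for Cxcl5 and -0.36 to -0.16 for Pf4. The negative Cxcl2 value and the calls of Cxcl5 and Pf4 arose without control 1, where 32.4% of all genes passed. The positive Cxcl3 value arose without control 3.

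Over all genes 21 passed (4 higher, 17 lower). The count was 5 with median-of-ratios scaling (0 higher, 5 lower), 0 with no filter (1928 at an unadjusted p under 0.05), 1 with eBayes without trend, 1446 with library weights (1046 higher), 12 with the replicate number as a block, 55 with the length trend removed (23 higher, 32 lower), 84 without controls 2 and 3 (32 higher) and 0 to 4254 with each library left out, the highest without control 1 with 0 on leaving out control 3 and CXCL3 libraries 1 or 2 (875, 765 and 799 at an unadjusted p under 0.05). The replicate block changed no call among the 7 genes. Same-numbered libraries had correlations of deviations of 0.12, -0.01 and 0.08 across genes. Controls 1 and 3 correlated best with the CXCL3 library of their own number, and control 2 with CXCL3 library 3 (0.13). Such weak values cannot decide whether the libraries were paired. The labels do not say that equal numbers mark a shared animal or day, so the numbers were not taken as pairs.

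With library weights, 1446 of all 13139 genes passed. Among the lists, 5 of 35 genes of G protein signalling, 2 of 19 inducing receptors and 3 of 18 transcription factors did. So did 1 of 10 mRNA-binding proteins, 2 of 19 proteoglycans and proteases and 2 of 3 other CXC genes. With each library left out these counts of the lists ran from 0 to 12, 0 to 9, 0 to 9, 0 to 3, 0 to 7 and 0 to 3. The highest were without control 1, where 32.4% of all genes passed. The cause was not tested. TPM without depth leaves the levels of Cxcr1 and Cxcr2 without a limit of detection.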

Other observations

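Of the markers used to check for neutrophils, S100a8 and S100a9 encode the 2 subunits of calprotectin, which are usually found together. Controls 1, 2 and 3 had 552, 669 and 581 TPM of S100a8, and CXCL3 libraries 1, 2 and 3 had 556, 529 and 582 TPM. S100a9 was listed at 0.25, 0 and 0 TPM in the controls and at 0.23, 0.23 and 0.71 TPM with CXCL3.

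The interferon-induced chemokine gene Cxcl9 was listed at 0 to 1.05 TPM. The fibroblast collagen gene Col1a1 was at 973 TPM in control 1 and at 567 to 632.5 TPM in the CXCL3 libraries, with 581 and 608.5 TPM in controls 2 and 3.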
